A study of Mus musculus with 8 samples.

Results

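The cytosolic ribosome is built from ribosomal RNA and a set of ribosomal proteins, nearly all encoded by genes named Rpl (large subunit) or Rps (small subunit). Rows of the count table were taken as members when their symbol matched the names Rpl or Rps followed by a digit, Rplp0, Rplp1, Rplp2 or Rpsa, and rows with -ps in the name (processed pseudogenes) and the Rps6k kinases, which phosphorylate a ribosomal protein without being part of the ribosome, were left out. Of 53465 rows, 387 matched the name, 284 of them were -ps rows and 10 were kinases, which left 93 members. These are 77 core subunit genes (46 of the large and 31 of the small subunit), 7 rows annotated as pseudogenes although their names do not show it, and 9 other paralogs and look-alikes. The samples were mesenchymal stem cells (MSCs, stromal cells able to form bone, fat and cartilage) from the bone of mice aged 3 to 5 months, 4 cultured at 2% oxygen (hypoxia) and 4 at 21% oxygen (normoxia). Neither group carried a transgene or drug in the labels, and CO2 and temperature were the same. The labels and the study's methods both place isolation by flow cytometry on day 12 of culture. A figure legend of the study instead gives day 10. Up to the sort all cells were kept at 2% oxygen. The study then divided the sorted cells between both oxygen levels and cultured them there for 7 days. How many animals gave each sample is not given in the sources used here.

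Ribosomal proteins are made in near-equal numbers, because each ribosome holds a single copy of most of them and unassembled protein is degraded. Their mRNAs are among the most abundant of a growing cell and belong to the TOP mRNAs, which begin with a terminal oligopyrimidine tract (a C followed by a run of C and T) through which the mTOR kinase and the RNA-binding protein LARP1 control their translation and stability. In stem and stromal cells, ribosome production is generally high in proliferating cells and falls when growth slows. In these data only mRNA was measured, so the values speak of transcript level and not of ribosome number or translation.

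The sequences around the annotated start sites are shown because this tract is the shared element by which such mRNAs are known, and because the members printed here cover genes that fell, genes that did not pass the test and paralogs. Promoter entries from RefSeq (build GRCm38.p6, 250 bases before and 50 after each start) were found for 57 of the 77 core genes. A tract was counted as a run of C and T on the gene's strand that begins with C, is at least 8 bases long and has its first base within 25 bases of the start. The capitals mark the longest such run, and 6 bases on each side are in lower case.
Rps12, chr10:23787185-23787207, minus strand: cgccggCCTTTTCCCCTgccgcc
Rplp2, chr7:141447641-141447661, plus strand: cagcgtCTTCCTTTCgccgcc
Rpl4, chr9:64173364-64173388, plus strand: acaagtCTTTCCTTTTCCTgtggga
Rpl5, chr5:107900502-107900522, plus strand: cagccaCTCTTTCTCacgtcg
Rpl11, chr4:136053358-136053385, minus strand: ggaagtCTCCCTCTCTCTTCCTgttctc
Rps27, chr3:90213636-90213656, minus strand: ctttcgCTCCTTTCCggcggt
Rps27l, chr9:66946058-66946078, plus strand: cctccaCTCCTCTCCactcct
Rpl22l1, chr3:28805505-28805524, plus strand: cccgttCTCTTCCCacggct
Rps16, chr7:28350672-28350688, plus strand: agcccgCTTCTgtcgtg
Rpl7l1, chr17:46782671-46782686, minus strand: tctctaCCCCgcccgg
In Rps16 and Rpl7l1 the longest run was shorter than 8 bases and was not counted as a tract. A tract was present in 34 of the 57 core genes (59.6%), against 18.7% of 27025 genes with an entry. By promoter these shares were 53.7% of 67 and 16.4% of 32851. A match describes these letters near an annotated start and is not a mapped transcript end.

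The depth of a sample ranged from 12898291 to 25132141 counts, and hypoxia replicate 1 was the deepest. The oxygen labels were checked on 7 genes that low oxygen is known to induce, such as Car9 and Egln3, and 7 of 7 were lower in normoxia. Ptprc, which encodes the CD45 antigen sorted against, was detected at a mean of 13.0 CPM (counts scaled to the same library size and composition) in hypoxia and 13.8 CPM in normoxia. The summed level of 10 blood and macrophage markers ranged from 608 to 1276 CPM in hypoxia and from 683 to 1301 CPM in normoxia, with 1 marker lower and 1 higher in the test (5 lower and 1 higher with the replicate number as a block). Of the erythroid markers, Hba-a1 and Hbb-bs were at 0 counts in every sample and Alas2 had at most 1 count. Tfrc, the transferrin receptor, which dividing cells of other types also make, rose in normoxia from 15.7 ± 6.83 to 52.2 ± 4.38 CPM (SD, n = 4 each; log2 change 1.81, adjusted p = 0.00018, limma-trend). The summed level of the erythroid markers therefore ranged from 8.94 to 25.2 CPM in hypoxia and from 46.4 to 55.8 CPM in normoxia. The endothelial markers summed to less than 1 CPM. Of 8 MSC markers, 1 was lower and 2 were higher in normoxia (5 and 3 with the block). The part of these markers in the results below was not tested.

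Core ribosomal protein genes were lower in normoxia in both subunits, with Rps14 and Rps12 of the small subunit and the stalk genes Rplp1 and Rplp2 of the large among the lowest. Of the 76 core genes that passed the filter on low counts, 75 had a change below 0. Of these 76, 65 fell, 0 rose and 11 did not pass the test (limma-trend, adjusted p under 0.05 over all 14369 genes tested). Among all genes tested, 34.6% were called, 16.5% lower and 18% higher. The median log2 change (normoxia minus hypoxia) of the core genes was -0.43, beside 0.0049 for all genes tested, and single genes ranged from -0.84 to 0.14. A change of -0.5 or lower was seen in 28 of the 76, beside 8.67% of all genes. In 63 of the 76, every normoxia sample lay below every hypoxia sample, a pattern shown by 15.5% of all genes. In 68 of the 76, the normoxia sample was the lower of each of the 4 same-numbered pairs, compared with 26.8% of all genes. With the replicate number as a block, 69 fell and 1 rose, where 46% of all genes were called, 22.7% lower and 23.3% higher. In bulk RNA, less ribosomal protein mRNA per cell and a smaller share of cells rich in it cannot be told apart.

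**Figure D1:**
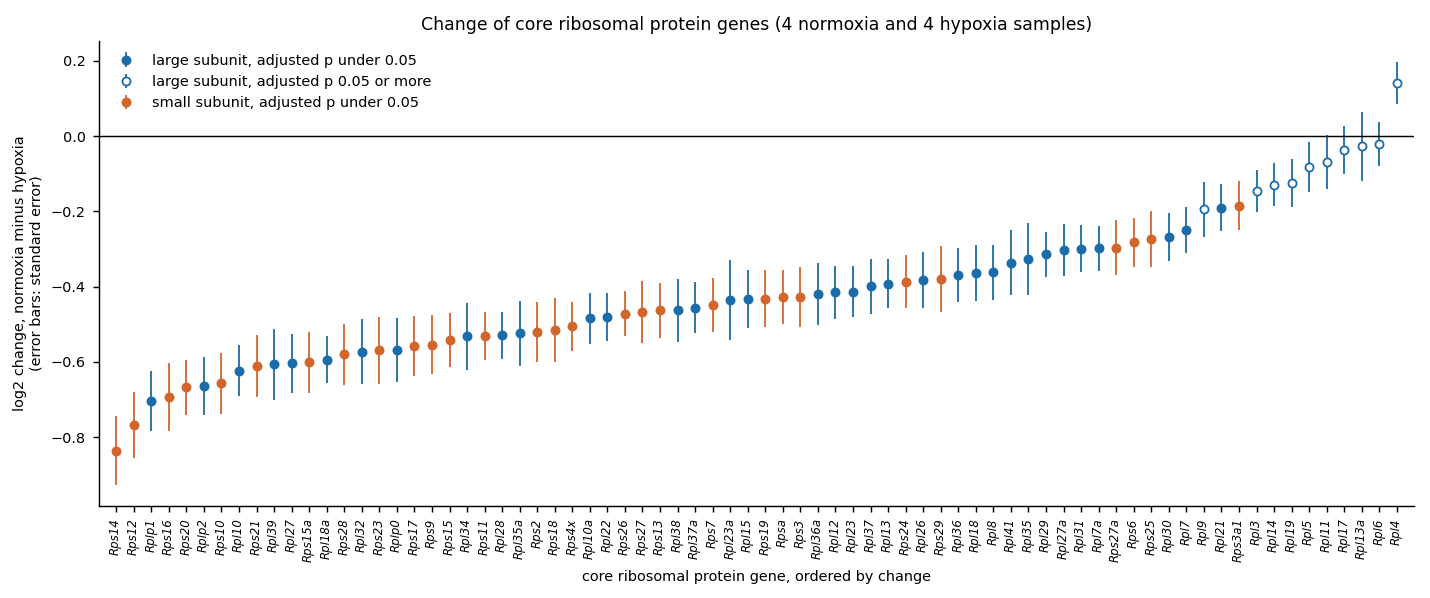
Log2 change (normoxia minus hypoxia, y axis) of 74 tested core genes, ordered from the lowest to the highest on the x axis. Points are the fitted change of 4 against 4 samples with its standard error, blue for the large and orange for the small subunit, and open where the adjusted p was 0.05 or more. Small-subunit genes gather at the left, from Rps14 at -0.84, and the 10 open points shown belong to the large subunit.

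Core genes held 4.81%, 4.37%, 5.10% and 5.58% of all counts in hypoxia replicates 1 to 4, with a mean of 4.96% ± 0.507 (SD, n = 4). In normoxia replicates 1 to 4 the share was 4.05%, 3.78%, 3.85% and 3.83%, with a mean of 3.87% ± 0.119 (SD, n = 4). The groups did not overlap, and the hypoxia samples were far more widely spread than the normoxia samples. That spread was shared by the members. Hypoxia replicate 4 had the highest level within its group for 69 of the 76 genes and hypoxia replicate 2 the lowest for 71, while normoxia replicate 1 was the highest of its group for 70. The median within-group SD of log2 CPM was 0.142 over the core genes in hypoxia and 0.0591 in normoxia, beside 0.166 and 0.133 over all genes tested. Taking same-numbered samples as pairs, the median difference of the core genes was -0.35, -0.30, -0.49 and -0.59 for pairs 1 to 4.

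**Figure D2:**
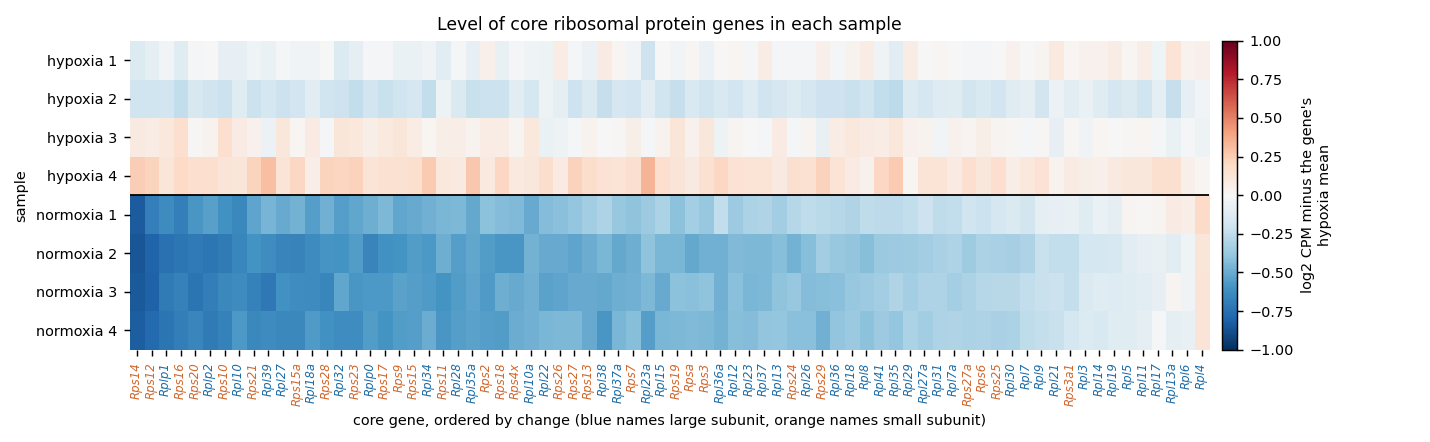
Log2 CPM of core genes in each sample, minus the mean of that gene over the 4 hypoxia samples (colour scale from -1 to 1). Rows are samples, columns are 74 tested core genes in the order of their change, and the 4 normoxia rows are blue over most columns while hypoxia replicate 4 is the reddest row.

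A larger share of the small subunit fell than of the large. Of its 31 genes, 30 fell and 1 did not pass the test, with a median change of -0.52. Of 45 tested large-subunit genes, 35 fell and 10 did not pass, with a median of -0.38. In summed counts, the large-subunit share fell from 2.73% ± 0.255 in hypoxia to 2.21% ± 0.0661 in normoxia, and the small-subunit share from 2.24% ± 0.252 to 1.66% ± 0.0528 (SD, n = 4 each). The ratio of large- to small-subunit counts was 1.25, 1.24, 1.20 and 1.20 in hypoxia and 1.33, 1.34, 1.33 and 1.33 in normoxia, so that all normoxia samples were above all hypoxia samples. These sums over chosen members were given no test.

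**Figure D3:**
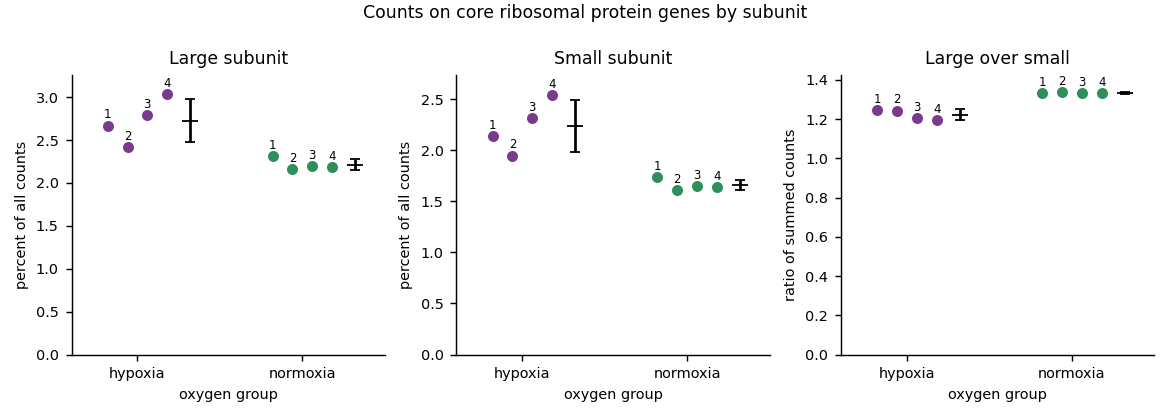
Percent of all counts on core genes of the large subunit (left) and small subunit (middle), and the ratio of their summed counts (right), by oxygen group. Each point is a sample, numbered by its replicate, and the bar beside each group is the mean ± SD of 4 samples. The ratio lies between 1.20 and 1.25 in hypoxia and between 1.33 and 1.34 in normoxia.

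Within each subunit the genes were divided by whether their protein family is universal, that is, shared with bacteria and archaea, or is not. The 15 universal small-subunit genes fell without exception (median -0.54), and 15 of the 16 others did (median -0.46). In the large subunit, 11 of 18 universal genes fell (median -0.31) against 24 of 27 tested others (median -0.42). Thus 7 of the 11 core genes that did not pass were universal genes of the large subunit, namely Rpl3, Rpl4, Rpl5, Rpl9, Rpl11, Rpl13a and Rpl17. The difference between these classes was not tested.

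Rps14 had the lowest change of all members. Its protein lies on the platform of the small subunit, and loss of a copy of the human gene underlies the anaemia of a myelodysplastic syndrome. Rps14 measured 1397, 1339, 1640 and 1819 CPM in hypoxia and 865, 852, 860 and 868 CPM in normoxia. The groups were far apart, and the normoxia samples were nearly level. The change was -0.84 ± 0.090 (SE; adjusted p = 9.9e-05, limma-trend), a normoxia level of 55.6% of the hypoxia mean.

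Rps12, a protein of the small-subunit head, measured 1126, 1050, 1271 and 1410 CPM in hypoxia and 753, 692, 687 and 704 CPM in normoxia. Its change was -0.77 ± 0.087 (SE; adjusted p = 0.00011, limma-trend), with no overlap between the groups. Rps16, whose tail reaches the peptidyl-tRNA site, fell from 571 ± 86.4 to 350 ± 4.84 CPM, and Rps20, which is ubiquitylated on stalled ribosomes, from 999 ± 93.8 to 628 ± 28.7 CPM (SD, n = 4 each). Their changes were -0.69 and -0.67. Rps12 shares 88.9% of its 100-base windows with other genes, so reads may be divided between copies.

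At the other end of the small subunit, Rps3a1, which binds at the mRNA exit, fell least among the genes that passed, from 787 ± 45.1 to 693 ± 39.4 CPM (SD, n = 4 each), by -0.18 (adjusted p = 0.044, limma-trend). This call was lost when hypoxia replicate 1, 3 or 4 or normoxia replicate 2, 3 or 4 was left out, with adjusted p between 0.064 and 0.12 (limma-trend). Rps25, which is needed by several viral RNAs for initiation, changed by -0.27 and passed, although its groups overlapped.

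The stalk, the flexible arm of the large subunit that recruits the elongation factors, fell in all 3 of its genes. Rplp1, the member with the highest level per kilobase of transcript, measured 2103, 1875, 2305 and 2333 CPM in hypoxia and 1385, 1279, 1318 and 1294 CPM in normoxia. No values overlapped, and the change was -0.70 ± 0.080 (SE; adjusted p = 0.00011, limma-trend). Its partner Rplp2 measured 616, 538, 632 and 695 CPM in hypoxia and 424, 375, 383 and 379 CPM in normoxia, and changed by -0.66 ± 0.077 (SE; adjusted p = 0.00013, limma-trend). Rplp0, which anchors both to the ribosome, measured 2785, 2454, 2924 and 3086 CPM in hypoxia and 2000, 1775, 1886 and 1906 CPM in normoxia. Its change was -0.57 ± 0.084 (SE; adjusted p = 0.00044, limma-trend), and its groups did not overlap either.

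The other low members of the large subunit were Rpl10, Rpl39 and Rpl27. Rpl10, which joins the subunit late, in the cytoplasm, fell from 1033 ± 85.1 to 669 ± 16.8 CPM, by -0.62. Rpl39, a short protein inside the peptide exit tunnel, fell from 495 ± 74.8 to 323 ± 23.9 CPM, by -0.61. Rpl27, a Diamond-Blackfan anaemia gene, fell from 518 ± 55.5 to 340 ± 16.9 CPM, by -0.60 (SD, n = 4 each). Adjusted p-values were between 9.9e-05 and 0.00057 (limma-trend), and the groups did not overlap in any of them.

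The 5S particle, formed by 5S rRNA with Rpl5 and Rpl11, is known both as an assembly unit of the large subunit and as an inhibitor of the p53 ligase MDM2. Neither of its genes passed the test. Rpl5 measured 596, 534, 593 and 637 CPM in hypoxia and 600, 545, 540 and 543 CPM in normoxia, and Rpl11 measured 447, 371, 431 and 460 CPM in hypoxia and 429, 402, 393 and 401 CPM in normoxia. The groups overlapped in both genes. The changes were -0.082 ± 0.067 for Rpl5 and -0.068 ± 0.071 for Rpl11 (SE; adjusted p = 0.38 and 0.49, limma-trend). Rpl5 shares 91.1% of its windows with other genes. After correction for GC content and length with the replicate block, Rpl5 was lower by -0.24 (adjusted p = 5.6e-05, limma-trend), and Rpl11 stood at 0.088 without passing.

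Rpl4 was the only core gene above 0. Its extension helps to form the constriction of the peptide exit tunnel, and its gene lies at chr9:64173375-64178666 (GENCODE M21, GRCm38, plus strand). It measured 909, 861, 847 and 886 CPM in hypoxia and 1001, 950, 956 and 957 CPM in normoxia. Every normoxia sample lay above every hypoxia sample, as in 17.1% of all genes, while 63 core genes had the opposite order. The change of 0.14 ± 0.056 (SE) did not pass without the replicate block (adjusted p = 0.070, limma-trend) and passed with it (adjusted p = 0.018, limma-trend). Only 5.14% of its windows are shared with other genes.

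Other changes near 0 belonged to Rpl6, Rpl13a, Rpl17, Rpl19 and Rpl14. Rpl6 measured 599, 552, 579 and 606 CPM in hypoxia and 610, 568, 569 and 556 CPM in normoxia, which is a change of -0.021 ± 0.057 (SE; adjusted p = 0.81, limma-trend). The changes of Rpl13a and Rpl17 were -0.027 and -0.036 (adjusted p = 0.85 and 0.70, limma-trend). Rpl13a, known also for translational silencing outside the ribosome, had only 40.5 CPM in hypoxia and 39.5 CPM in normoxia, and 59.3% of its exon bases are overlapped on the same strand by Gm45713, which had 0 counts in every sample. Rpl14 at -0.13 and Rpl19 at -0.12 did not pass (adjusted p = 0.11 and 0.15, limma-trend), and passed with the replicate block (adjusted p = 0.031 and 0.045, limma-trend). The same held for Rpl9 at -0.19 (adjusted p = 0.054 without and 0.0045 with the block) and for Rpl3, which reaches towards the peptidyl transferase centre, at -0.15 (adjusted p = 0.065 and 0.015, limma-trend). Without hypoxia replicate 2, the lowest of its group for most members, Rpl3, Rpl9, Rpl14 and Rpl19 passed with adjusted p between 0.0084 and 0.041 (limma-trend), and Rpl9 also passed without normoxia replicate 1 (0.039).

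Whether the members changed by unequal amounts was examined by scaling every sample to its total of core counts, an analysis chosen after seeing the data. On this scale the median of all genes shifted by 0.43, to 58.9% of genes called, 57.3% higher and 1.64% lower, and only differences among the members are read from it. Of the 76 core genes, 8 were lower relative to the core total, among them Rps14, Rps12, Rplp1, Rps16, Rps20 and Rplp2. In turn 14 were higher relative to it, with Rpl4 at 0.58, Rpl6 at 0.42, Rpl13a at 0.41, Rpl17 at 0.40, Rpl11 at 0.37, Rpl5 at 0.36, Rpl19 at 0.32, Rpl14 at 0.31 and Rpl3 at 0.30. Rps3a1, Rpl21, Rpl9 and Rpl7 were also higher relative to it. So the relative losses fell on 6 small-subunit genes and 2 stalk genes, and the relative gains on 12 large-subunit and 2 small-subunit genes.

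The next 2 lists are read beside the core genes, of which 65 of 76 fell (median -0.43), and all genes tested, of which 16.5% were lower. In the rim of the peptide exit tunnel, where the growing chain meets its first chaperones, 5 of 7 genes fell, and Rpl17 and Rpl19 did not pass. Of 19 genes mutated in Diamond-Blackfan anaemia, an inherited failure of red cell production, 17 fell, with a median of -0.43. This was close to the core genes as a whole, and the exceptions were Rpl5 and Rpl11. Among the 19, Rps19, the gene most often mutated in that disease, fell from 573 to 423 CPM, by -0.43 ± 0.076 (SE; adjusted p = 0.0013, limma-trend). Rps6, the substrate of the S6 kinases, changed by -0.28 and passed, but stood at -0.023 after correction for GC content and length with the block (adjusted p = 0.69, limma-trend). Rps27a, which encodes a ribosomal protein fused to ubiquitin, fell by 0.30 on the log2 scale.

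The paralogs behaved unlike each other. Rpl22l1, which can replace Rpl22 in the ribosome, fell as its parent did. It lies at chr3:28805436-28807424 on the plus strand and measured 31.6, 25.3, 36.1 and 42.5 CPM in hypoxia and 21.5, 22.7, 21.9 and 19.6 CPM in normoxia. The groups did not overlap, and the change was -0.63 ± 0.13 (SE; adjusted p = 0.0031, limma-trend). Rpl22 measured 316, 315, 313 and 369 CPM in hypoxia and 243, 231, 226 and 238 CPM in normoxia, with a change of -0.48 ± 0.064 (SE; adjusted p = 0.00024, limma-trend).

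Rps27l, a paralog of Rps27 known as a target of p53, was at 139, 130, 150 and 162 CPM in hypoxia and 141, 125, 121 and 117 CPM in normoxia. The groups overlapped, and normoxia replicate 1 lay within the range of the hypoxia samples. Its change of -0.20 ± 0.079 (SE) did not pass (adjusted p = 0.067, limma-trend), and passed with the replicate block (adjusted p = 0.013, limma-trend), without hypoxia replicate 2 (0.028) and without normoxia replicate 1 (0.023). Rps27 measured 413, 363, 416 and 493 CPM in hypoxia and 320, 290, 295 and 307 CPM in normoxia, and fell by 0.47 on the log2 scale. Rps27 shares 98.4% of its windows with other genes and Rps27l shares 0%.

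Rpl7l1 was the only member that rose in the test without the replicate block or correction. Its product is related to Rpl7 and is known from precursors of the large subunit rather than from finished ribosomes, and the gene lies at chr17:46773907-46782672 on the minus strand. It measured 66.3, 62.6, 65.5 and 66.7 CPM in hypoxia and 80.0, 77.6, 81.0 and 73.1 CPM in normoxia. No values overlapped, and the change was 0.25 ± 0.057 (SE; adjusted p = 0.0050, limma-trend), opposite to Rpl7 at -0.25 ± 0.061 (SE; adjusted p = 0.0079, limma-trend).

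Rpl39l, a paralog of Rpl39 best known from testis, was low, at 7.23, 7.54, 7.73 and 9.48 CPM in hypoxia and 7.87, 6.84, 7.72 and 7.39 CPM in normoxia, and did not pass (-0.092 ± 0.12, SE). Rps4l, annotated as a pseudogene copy of Rps4x, lay between 22.8 and 29.1 CPM in all samples, with a change of -0.027, while Rps4x fell from 1133 ± 68.8 to 797 ± 33.4 CPM (SD, n = 4 each). Rps27rt had 13 to 32 counts per sample and Rpl36al 2 to 11, and neither passed. Rps19bp1, a regulator of the deacetylase SIRT1 that is not itself a ribosomal protein, changed by 0.15 without passing (adjusted p = 0.34, limma-trend). After correction for GC content and length with the replicate block, both Rps4l and Rps19bp1 were called higher. They stood at 0.25 and 0.39 (adjusted p = 0.0099 and 0.0029, limma-trend).

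To ask whether a paralog and its parent responded unequally, their per-sample log2 ratio was compared in 7 pairs with an exact permutation test (two-sided, all 70 assignments of the samples), and adjusted over the 7. The ratio of Rps27l to Rps27 was higher in normoxia by 0.27, that of Rpl39l to Rpl39 by 0.51 and that of Rpl7l1 to Rpl7 by 0.50, in 4 of 4 pairs each. In all 3 the groups did not overlap, the exact p was 0.0286, the smallest the design allows, and the adjusted p was 0.067, so none passed. The differences were 0.48 for Rps4l and Rps4x and 0.93 for Rpl36al and Rpl36a (exact permutation test, adjusted p = 0.080 each). For Rpl22l1 and Rpl22 the difference was -0.15, with pair values from -0.48 to 0.29 (exact permutation test, adjusted p = 0.37). After correction for GC content and length the difference of Rps27l and Rps27 was -0.020, opposite in sign.

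**Figure D4:**
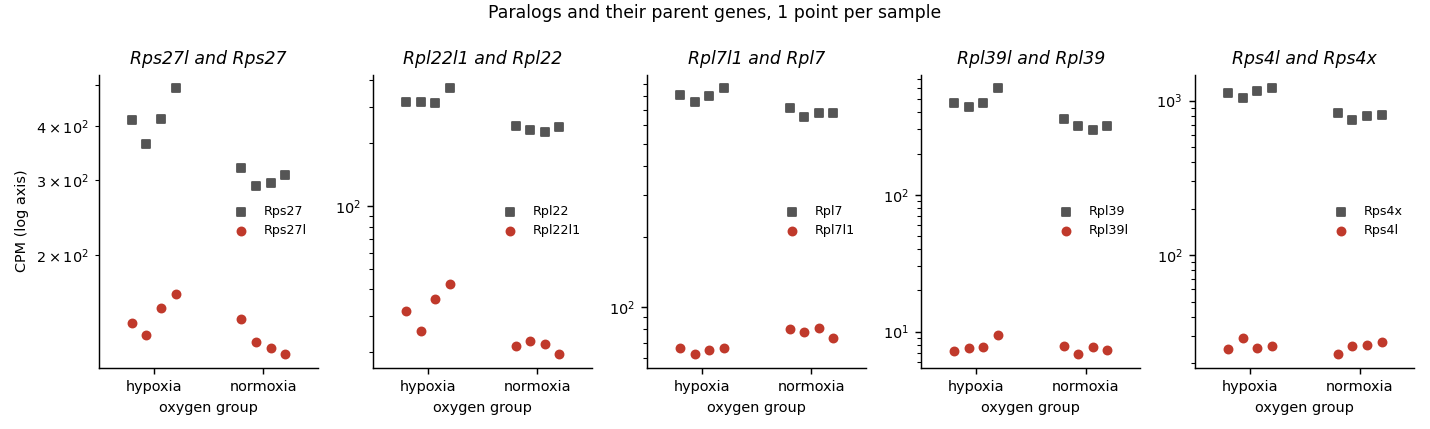
CPM (log axis) of 5 paralogs (red circles) and their parent genes (grey squares) by oxygen group, 1 point per sample. The parents are lower in normoxia in each panel, whereas Rpl22l1 is lower, Rpl7l1 is higher, and Rps27l, Rpl39l and Rps4l overlap between the groups.

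The 6 tested pseudogene-annotated members had a median change of -0.12, and only Rpl37rt passed. Rpl37rt was at 12.3, 10.9, 13.8 and 14.8 CPM in hypoxia and 9.80, 8.57, 10.3 and 9.12 CPM in normoxia, a change of -0.44 (adjusted p = 0.012, limma-trend). The -ps rows together held 0.0917% ± 0.00919 of all hypoxia counts and 0.0738% ± 0.00432 of all normoxia counts (SD over 4 samples). When their counts were added to the members they are named after, 65 core genes fell, as before. Not tested for low counts were Rpl24 with 1 to 5 counts per sample, Rpl3l with 0 to 2, and Rpl10l and Rps12l1 with 0. Rpl24 is a core gene, and 71.5% of its exon bases are overlapped on the same strand by Gm28037, which also had 0 counts throughout. How the counting treated reads in this overlap is not given in the sources used here. A count of 0 allows a level of up to 0.119 to 0.233 CPM, depending on the sample.

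Among properties the choice of members did not use, those with a higher level per kilobase tended to have the lower change (Spearman's rho = -0.48, Pearson's r = -0.47 across 76 genes of the same libraries). With the level itself, not divided by length, the relation was weaker (rho = -0.14, r = -0.21). With transcript length rho was 0.33, with the share of windows found in other genes 0.25 and with GC content -0.12, each across the same 76 genes. These properties were taken from the annotated principal transcript of each gene. Core transcripts were short, with a median length of 740 bases beside 2702 for all genes tested, and had a median GC content of 51.9% beside 50.4%. With a tract, 28 of 34 core genes fell (median -0.44), and without a tract 20 of 22 did (median -0.45). Of the 10 core genes that share no window with another gene, 9 fell, with a median of -0.55.

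Length and GC content, here of the longest annotated transcript of each gene and not the principal one, were then removed as smooth curves from each sample. This removal also takes away any oxygen response that follows them. With this correction alone, 59 of the 76 core genes fell, where 29.5% of all genes were called and 14.4% were lower. With the correction and the replicate block, 63 fell and 2 rose, beside 43.2% of all genes called, 21.5% lower and 21.7% higher, and the median was -0.36. Among those that rose was Rpl4 at 0.14 (adjusted p = 0.0060, limma-trend). Rpl35, Rpl29, Rpl36 and Rps6 no longer passed. Rps20 moved to -0.89 and Rps12 to -0.86, while Rps14 moved to -0.61.

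**Figure D5:**
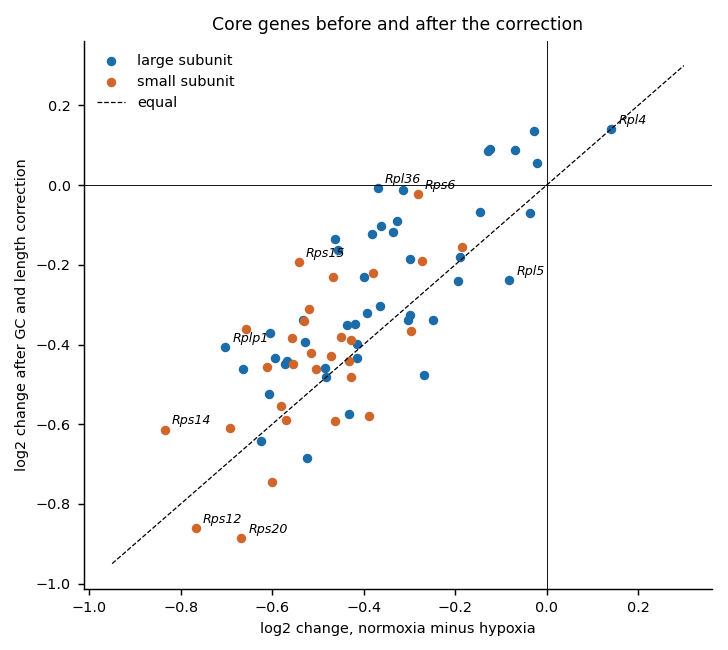
Log2 change of 74 core genes (normoxia minus hypoxia) without correction on the x axis and after correction for GC content and length, with the replicate block, on the y axis, blue for the large and orange for the small subunit. The dashed line marks equal values. Most genes stay below 0 on both axes, and Rpl4 stays at 0.14.

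Other genes of the pathway were read from lists. Among ribosome components with other names, Fau fell by 0.62 and Rack1, a scaffold on the small-subunit head, by 0.49 on the log2 scale (adjusted p = 0.00024 and 0.00070, limma-trend). Of 16 other TOP mRNAs, 7 fell and 0 rose, beside 16.5% of all genes lower and 18% higher, with a median of -0.14. After correction for length and GC content, with the replicate block, 11 fell and 1 rose, beside 21.5% and 21.7% of all genes. Without this correction, those that fell included Eif3f (-0.58), Tpt1 (-0.56), the elongation factor Eef2 (-0.47), Eef1b2 (-0.36) and the poly(A)-binding protein Pabpc1 (-0.30). Eef1a1, the most abundant of them at 6517 CPM in hypoxia and 6338 CPM in normoxia, changed by -0.039 (adjusted p = 0.77, limma-trend). The nucleolar Npm1 at -0.016 and Naca at -0.0062 did not pass either, although Npm1 passed at -0.16 with the correction and the block (adjusted p = 0.0024, limma-trend).

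Of 15 genes that regulate TOP mRNAs, 4 fell and 8 rose, so that the share called was above the 34.6% of all genes. Mtor rose by 0.41, its substrate Rps6kb1 by 0.45 and the upstream inhibitor Tsc1 by 0.44. Larp4 and Larp4b, RNA-binding proteins related to LARP1, rose by 0.46 and 0.35, and Larp1 itself was at -0.058 (adjusted p = 0.58, limma-trend). The translational repressors Eif4ebp1 and Eif4ebp2 fell by 0.42 and 0.46, Tsc2 fell by 0.34 and the mTOR inhibitor Ddit4 by 0.21 on the log2 scale. Corrected for length and GC content, and with the block, Ddit4 stood at -0.0051 and no longer passed (adjusted p = 0.95, limma-trend). Of 8 chaperones and assembly factors of single ribosomal proteins, 0 fell and 2 rose, Ltv1 (0.43) and the import receptor Ipo7 (0.30), a share called below the 34.6% of all genes. Ipo7 no longer passed with the correction and the block (0.070, adjusted p = 0.23, limma-trend). The chaperones Tsr2 of Rps26 and Grwd1 of Rpl3 stood at 0.16 and 0.17 without passing, and Grwd1 passed at 0.36 with the correction and the block (adjusted p = 0.0014, limma-trend).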

How the data were processed

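RNA-seq counts of 4 hypoxia and 4 normoxia samples were used. The authors processed single-end reads of total RNA with zUMIs, STAR, samtools and featureCounts on mm10 with Ensembl annotation, and what they deposited are counts of reads for each gene without normalization. The settings for strand, introns and reads with several places are not given in the sources used here, so members with near-identical copies are uncertain.

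Symbols came from GENCODE M21 (53360 of 53465 rows, the others holding 0.00364% of counts). Genes were kept by filterByExpr (minimum count 5), scaled by TMM (edgeR 4.0.16), expressed as log2 CPM with a prior count of 3 and compared by limma-trend (limma 3.58.1, R 4.3.3), with Benjamini-Hochberg adjustment over 14369 genes calling adjusted p-values under 0.05. Each log2 change is the normoxia mean minus the hypoxia mean. The exact permutation tests used scipy 1.17.1. Shared windows are 100-base stretches of a member's transcripts found in another gene's transcripts. GC content and length, taken from the longest annotated transcript of each gene unless the principal transcript is named, were removed as splines with 5 degrees of freedom.

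Same-numbered samples were taken as pairs, since the study divided sorted cells between the oxygen levels and the correlations across genes of their deviations from the group means were 0.47, 0.28, 0.25 and 0.17. Alternatives were the replicate block, the edgeR quasi-likelihood test, DESeq2 1.42.0, limma-voom, other scalings, filters and prior counts, the GC and length correction, -ps counts added and each sample left out. On simulated data limma-trend recovered 97% of 200 genes changed by 1 on the log2 scale, among 14213 genes, and 5.83% of the genes it called had not been changed. The simulation gave every gene the same extra variation and held no pairing of samples. No core gene changed by as much as 1 (the lowest was -0.84), so this recovery does not describe the smaller changes reported here.

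The members and gene lists were chosen with earlier results of these data known. Given in full were the paralogs with their parents, the stalk and the 5S particle, the 5 lowest and 3 highest changes in each subunit and, by name, core genes that did not pass. Some genes are counted in the totals but are not reported here by name. Replicates are separate samples per the labels. Depth was 12898291 to 25132141 counts, at which 3 counts are 0.119 to 0.233 CPM. This floor covers counting error only.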

Additional observations from a re-analysis of the deposited data

Results flagged for a closer look

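In 9 of 100 sets of 4 samples, a sample stood apart from the other 3 by a larger part of the group's range than Dixon's critical value for 4 samples allows, where chance gives about 1 in 20 sets, or 5. Hypoxia replicate 1 had 25132141 total counts, against 12929564 to 13219647 in the rest of its group. Hypoxia replicate 4 had 368.8 CPM of Rpl22 against 312.5 to 315.5, and its log2 ratio of Rpl7l1 to Rpl7 was -3.696 against -3.601 to -3.59. Hypoxia replicate 2 had a log2 ratio of Rps4l to Rps4x of -5.154 against -5.542 to -5.497. The remaining 5 were levels in normoxia replicate 1, each above those of the other 3 normoxia samples. They were 423.6 CPM of Rplp2 (others 375.3 to 382.7), 1001 CPM of Rpl4 (950.3 to 957.2), 556.5 CPM of Rpl9 (504.6 to 511.7), 599.6 CPM of Rpl5 (539.9 to 544.8) and 238.7 CPM of Rpl36a (202.0 to 203.4). Without both samples numbered 1, 66 core genes were lower in normoxia.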

How the results depend on the processing

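The count of core genes lower in normoxia stayed between 55 and 69 under 23 alternatives, and between 62 and 69 with each sample left out. Calls lost in this way were those of Rps3a1, of Rpl21 (without hypoxia replicate 1 or 4 or normoxia replicate 2, 3 or 4, adjusted p between 0.067 and 0.078) and of Rpl35 (without hypoxia replicate 3 or 4 or normoxia replicate 4, adjusted p between 0.051 and 0.063), all by limma-trend. The count of core genes higher was 1 with the replicate block, 1 with DESeq2, 1 with total counts as the only scaling and 2 when GC content and length were corrected for within the block fit. With total counts 69.6% of all calls were higher in normoxia, against 52.2%. Beside the calls given in the report, the block called Hnrnpa1 lower and Heatr3 higher, and it changed no other call among the members and pathway genes. Other pathway genes called higher were 10, and between 6 and 11 with a sample left out (6 without normoxia replicate 3).

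With GC content and length taken from a shorter, principal transcript, chosen after seeing the data, 1 core gene was called higher, and 2 with the block, and 6 other pathway genes were higher without it. The median was then -0.30 for all core genes and -0.35 for the small subunit with or without the block. Relative to the core total, 6 to 11 core genes were lower and 12 to 17 higher with a sample left out.

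Some changes near 0 turned positive, and the cause was not tested. With total counts alone these were Rpl6 (0.067), Rpl13a (0.061), Rpl5 (0.0066), Rpl11 (0.020), Rpl17 (0.052) and Rps4l (0.061). With the GC and length correction, with or without the block, they were Rpl6 (0.056), Rpl13a (0.14), Rpl14 (0.085), Rpl19 (0.092), Rpl11 (0.088) and Rps4l (0.25). Only Rps4l passed there, and only with the block (adjusted p = 0.0099, limma-trend). With the principal transcript the positive changes were Rpl6 (0.027), Rpl13a (0.12), Rpl19 (0.083), Rpl11 (0.083) and Rps4l (0.24). With a sample left out they were Rpl13a (0.019 without hypoxia replicate 1 and 0.026 without hypoxia replicate 4, range from -0.10), Rpl17 (0.016 without hypoxia replicate 4, range from -0.071) and Rps4l (0.027 without hypoxia replicate 2 and 0.015 without normoxia replicate 1, range from -0.072). With the GC and length correction the paralog differences were -0.020 for Rps27l and Rps27 and -0.075 for Rps27rt and Rps27. Of the 7 pairs none passed under a sign-flip test over the 4 pairs, which cannot go below 0.125.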
